A study of Mus musculus with 160 samples.

Results

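The 10 genes of the fat programme described here were followed through 160 single stromal cells of mouse bone marrow: the hormone gene Adipoq, the regulators Pparg, Cebpa, Cebpb and Cebpd, the fatty acid genes Lpl, Fabp4 and Fabp5, and the droplet and lipoprotein genes Plin2 and Apoe. They were chosen by name as 10 of the 22866 distinct gene names in the table, and each had 1 row of its own, shared with no other gene. The cells came from C57BL/6J mice with no genetic change named in the labels, 82 from young and 78 from old animals. The sample labels give the ages as 9 weeks and 24 months, and the protocol gives 10 weeks and 2 years. Cells were sorted as leptin receptor and CD140a positive and as negative for CD45, Ter119 and CD31, which mark blood, red and endothelial cells, and were captured one by one on a Fluidigm C1 microfluidic system. The labels name no animals, so an age was taken as 1 sample, no difference between the ages has a replicate check, and no test was made. Wells were counted per age in the protocol, 96 for young and 96 for old cells, so age and capture cannot be told apart. Xist was listed in 54 old cells and 0 young cells, and Y-linked genes in 34 young cells and 0 old cells. Age therefore cannot be told apart from sex as these RNAs mark it. This holds for all differences between the ages given here.

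A cell becomes a fat cell in steps. C/EBP-beta and C/EBP-delta, the products of Cebpb and Cebpd, come first and bind the genes of PPAR-gamma and C/EBP-alpha, the pair of master regulators that then hold each other on and switch on the genes of fat uptake, storage and secretion. In the marrow, stromal cells with leptin receptor are a source of blood stem cell niche factors and can give rise to both bone and fat, and adiponectin and lipoprotein lipase RNA are known to be abundant in them.

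The control regions of the hormone gene and of a master regulator show where such a binding site would be read. Windows from 250 bases before to 50 bases after the start of transcription were available from RefSeq (GRCm38.p6) for 6 of the 10 genes, 10 windows in all, and were searched on both strands for the C/EBP motif TTGCNNAA. The expression values were made on another build, mm9, so these coordinates belong to the sequences only. The motif was found in 10.8% of 32851 such windows of all genes and in 1 of the 10 windows here, a Pparg start on the plus strand of chromosome 6 with 2 matches, 215 and 16 bases before the start. That window and the Adipoq window on the plus strand of chromosome 16, which holds no match, are printed 5′ to 3′ with the matches in capitals.
Pparg, chr6:115421816-115422115: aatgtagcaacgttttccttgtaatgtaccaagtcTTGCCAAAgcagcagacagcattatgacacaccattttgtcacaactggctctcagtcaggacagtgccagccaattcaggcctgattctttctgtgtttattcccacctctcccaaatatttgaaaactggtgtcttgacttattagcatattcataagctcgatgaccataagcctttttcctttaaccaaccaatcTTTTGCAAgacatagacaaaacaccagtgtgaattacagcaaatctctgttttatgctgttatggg
Adipoq, chr16:23146286-23146585: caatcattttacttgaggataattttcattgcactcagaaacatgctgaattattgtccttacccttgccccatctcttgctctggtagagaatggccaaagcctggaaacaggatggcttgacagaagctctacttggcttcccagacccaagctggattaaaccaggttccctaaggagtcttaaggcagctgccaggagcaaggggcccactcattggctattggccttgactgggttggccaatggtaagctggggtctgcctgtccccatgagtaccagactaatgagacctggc
A match is only a run of letters, and its absence from the Adipoq window says nothing of the factor. The longer repeat bound by PPAR-gamma with its partner RXR was present in 0.0396% of all windows and in 0 of the 10.

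Values were FPKM, a fragment number divided by the length of the transcript and by the total mapped in that cell, and a gene was called listed in a cell at 1 FPKM or more. The cells differed greatly in how many fragments lay behind such a value. In many genes the low values of a cell were whole multiples of what 1 fragment was worth in it, and comparing these steps gave each cell a relative depth, with the median cell set at 1. Of the 12720 pairs of cells, 99.14% fitted the depths within 0.01 on the log2 scale. The deepest cell had 50756 times the depth of the shallowest. Cells with at least 25% of the median depth, here called deeper, numbered 56 young and 53 old, and the other 26 young and 25 old cells lay at median depths of 0.00175 and 0.000939. A gene number does not show this gap as plainly: medians of 1264 young and 1322 old genes were listed in deeper cells and 539 and 470 in shallower cells.

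For Adipoq, 1 fragment was worth 0.00806 FPKM in the deepest cell and 409.3 FPKM in the shallowest. Adipoq was listed in 41 shallower cells, in 5 of them by a single fragment and in 18 by 3 fragments or fewer. The 105 deeper cells that listed it held between 89 and 92196 fragments, with a median of 12405. A single fragment of Adipoq reached 1 FPKM in 42 cells, none of them deeper, so in those cells being listed means at least 1 fragment. Fragment numbers could be recovered in the same way for Cebpa, Cebpb, Cebpd and Fabp4, but not for Lpl, Apoe, Pparg, Plin2 or Fabp5. The main results are therefore given for all cells and for deeper cells, and ranges in brackets after a share are its 95% interval by the exact Clopper-Pearson method, for counting error alone. Where no cell of a group listed a gene, the share stated as allowed is that of 3 cells, which is a little under the exact upper bound.

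**Figure D1:**
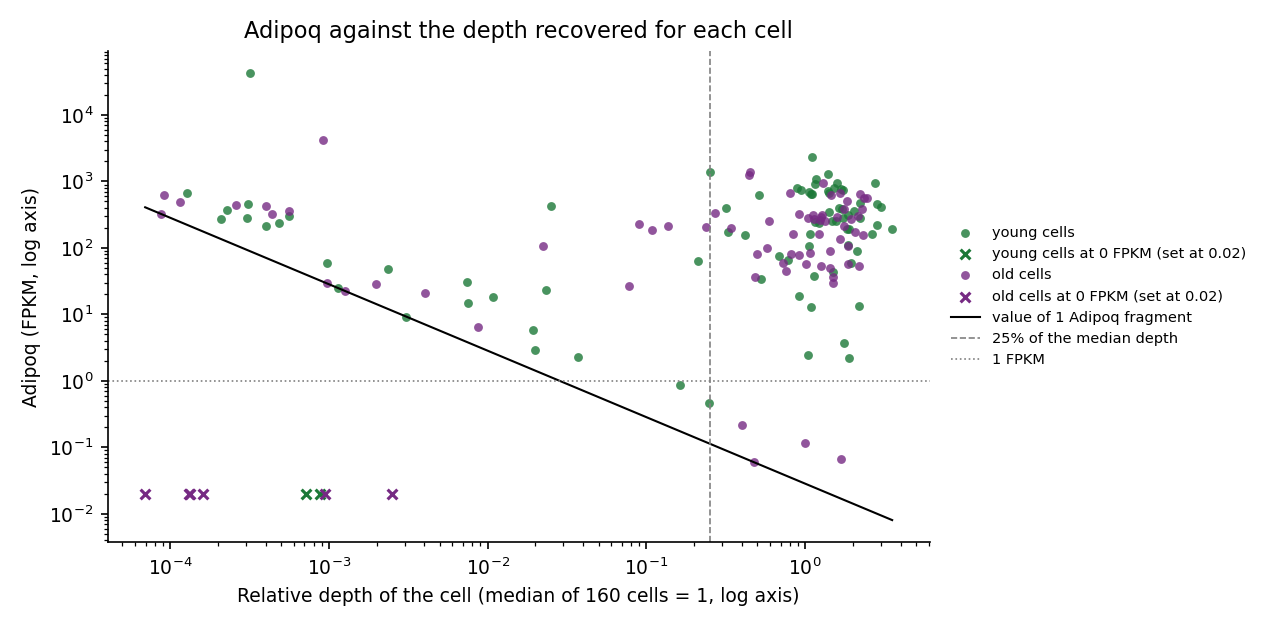
Adipoq in FPKM against the relative depth of each cell, both on log axes, for 82 young and 78 old cells, with crosses at 0.02 for cells at 0 FPKM. The solid line is the value of 1 Adipoq fragment, the dashed line marks 25% of the median depth and the dotted line 1 FPKM. The cells to the left of the dashed line lie on or near the line of 1 fragment in several cases, while the 105 deeper cells that list Adipoq lie far above it.

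Adipoq, which encodes the fat hormone adiponectin, was among the most abundant RNAs of these cells. In the young cells its level ran from 0 through a median of 234.6 to a highest value of 42706 FPKM, and in the old cells from 0 through 180.1 to 4224 FPKM. Its median ranked 13 among all gene names in young cells and 20 in old cells. The ages overlapped over nearly the whole range. It was listed in 95.1% of young cells (88 to 98.7%) and 87.2% of old cells (77.7 to 93.7%), a difference of -7.94 percentage points, old minus young, which was -0.761 in cells with at least 50% of the median gene number. All 56 deeper young cells and 49 of 53 deeper old cells listed it, and the medians there were 282.1 and 200 FPKM. The other 4 old cells lay between 0.0596 and 0.214 FPKM, which came from 4 fragments or fewer, against a lowest value of 29.39 FPKM in the 49. No deeper cell lay between these groups in the old, whereas the lowest deeper young cell stood at 2.19 FPKM. Among these 4 old cells, Cebpb was listed in 1, Lpl in 2 and Apoe in 2, and Pparg, Cebpa and Cebpd in 0. They listed 1249, 1517, 317 and 414 genes of any kind, beside a median of 1322 in deeper old cells. They were singled out after their values were seen. Young cells of this kind were also present just under the depth cut: at relative depths of 0.163 and 0.249, Adipoq stood at 0.874 and 0.458 FPKM on 5 and 4 fragments.

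The log2 ratio of mean Adipoq FPKM, old over young, was -1.54 with a pseudocount of 1. Of the young sum, 60.8% came from 1 shallower cell at 42706 FPKM, a value that rested on 480 fragments. Without the highest cell of each age the log2 ratio was -0.48, and in deeper cells it was -0.63.

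The pair of master regulators was listed in a minority of cells. Cebpa, which encodes C/EBP-alpha, was listed in 18.3% of young cells (10.6 to 28.4%) and 16.7% of old cells (9.18 to 26.8%). Among cells that listed it, young values ran from 1.11 through a median of 4.71 to 451.7 FPKM, and old values from 1.89 through 12.71 to 90.55 FPKM. Both highest values were those of shallower cells, the young on 286 fragments and the old on 1, and in deeper cells the listed medians were 4.71 and 6.71 FPKM and the highest values 26.61 and 63.97 FPKM. Cebpa shares were 23.2% and 18.9% in deeper cells, where a listed value rested on at least 205 fragments. The 2 ages thus overlapped in both share and level. The sign of the Cebpa ratio of means changed with the cells used: log2 -0.63 in all cells and 0.50 in deeper cells.

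Pparg, which encodes PPAR-gamma, was listed in 8 young cells (9.76%, 4.31 to 18.3%) and 4 old cells (5.13%, 1.41 to 12.6%). Its 8 young values ran from 1.48 through a median of 8.03 to 196.6 FPKM, and its 4 old values were 1.16, 2.64, 13.1 and 40.16 FPKM. Of these, 6 young and 2 old cells were deeper. The highest young cell, at 196.6 FPKM, also listed Fabp4 at 240.5 FPKM. Pparg and Cebpa were listed together in 2 young cells and in no old cell (0 of 78, which allows up to 3.85%). At any FPKM above 0 the pair met in old cells too, as in a deeper cell at 0.439 FPKM of Pparg and 6.605 FPKM of Cebpa. Cebpa was listed in 25% of young cells with Pparg and 17.6% of those without. In old cells these shares were 0% and 17.6%, with Pparg listed in 4 cells. Cells with neither gene numbered 61 in each age, 74.4% and 78.2%. Any value above 0 FPKM of Pparg or Cebpa was present in 58.9% of deeper young and 50.9% of deeper old cells, against 30.4% and 22.6% at 1 FPKM. For Cebpa, 27 deeper cells lay above 0 and under 1 FPKM, of which 10 held 1 fragment and the highest 117.

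Cebpb and Cebpd, the early regulators, were the only members of the 10 with a higher share in old cells, both among all cells and among deeper cells. Cebpb was listed in 13 young cells (15.9%, 8.72 to 25.6%) and 27 old cells (34.6%, 24.2 to 46.2%), 18.8 points more. Among listed cells, the young ran from 1.06 through a median of 2.17 to 21.16 FPKM and the old from 1.05 through 5.46 to 140.4 FPKM. The 140.4 FPKM was 1 fragment in a shallower cell, and the highest deeper old cell had 30.78 FPKM. In deeper cells the Cebpb shares were 21.4% and 45.3%, 23.9 points apart, and the intervals of 11.6 to 34.4% and 31.6 to 59.6% overlapped slightly. The median deeper young cell held 0.0702 FPKM and the median deeper old cell 0.656 FPKM of Cebpb.

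Cebpd was listed in 15 young cells (18.3%, 10.6 to 28.4%) and 25 old cells (32.1%, 21.9 to 43.6%), 13.8 points more. Among listed cells, the young ran from 1.07 through a median of 3.05 to 32.45 FPKM and the old from 1.62 through 5.55 to 156 FPKM. The 156 FPKM of Cebpd was likewise 1 fragment, and the highest deeper cells had 32.45 FPKM in the young and 37.16 FPKM in the old. In deeper cells the Cebpd shares were 23.2% and 37.7%, 14.5 points apart, with overlapping intervals. Counted at any FPKM above 0 in deeper cells, the difference in Cebpd was -0.438 points, so the higher old share of Cebpd there depended on the threshold of 1 FPKM. The log2 ratio of mean Cebpd was 1.72 in all cells and 0.67 in deeper cells, and that of Cebpb was 1.65 and 1.12. Cebpb or Cebpd or both were listed in 31.7% of young and 52.6% of old cells, and in 41.1% and 62.3% of deeper cells.

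Lpl encodes lipoprotein lipase, which frees fatty acids from circulating lipoproteins. In young cells it ran from 0 through a median of 49.34 to 2733 FPKM, and in old cells from 0 through 60.6 to 719.3 FPKM. The ages overlapped throughout, and the medians and the shares pointed opposite ways. Lpl was listed in 92.7% of young cells (84.8 to 97.3%) and 83.3% of old cells (73.2 to 90.8%), and in 91.1% and 84.9% of deeper cells. The difference of -9.35 points in all cells was -1.27 in cells with at least 50% of the median gene number and 0.317 in cells of at least the median depth.

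Fabp4, the fatty acid carrier of fat cells and also of endothelium, was listed in 9 young cells (11%, 5.14 to 19.8%) and in no old cell (0 of 78, which allows up to 3.85%, exact bound 4.62%). In those 9 cells it stood at 13.73, 16.88, 41.18, 94.34, 196.5, 200.7, 240.5, 441 and 629.4 FPKM, and the highest old cell had 0.588 FPKM. Fabp4 was at 0 in 69 of the 82 young and 75 of the 78 old cells, so the ages differed by a small set of young cells. The cell at 94.34 FPKM was shallower and held a single fragment, while the other 8 were deeper and held 298 to 10285 fragments. In deeper cells the shares were 14.3% and 0 of 53, which allows up to 5.66% (exact bound 6.72%). Endothelial markers were listed in 0 of the 160 cells for all 7 genes of that list, with a highest summed value of 0.00474 FPKM. The 8 deeper Fabp4 cells had a median Adipoq of 787.2 FPKM, against 269.4 FPKM in the 48 deeper young cells without Fabp4. Their Adipoq ran up to 2302.4 FPKM, but values of 106.2, 109.9 and 255.3 FPKM lay under 269.4 FPKM. In deeper young cells Adipoq and Fabp4 had a Spearman correlation of 0.198. The 95th percentile of Adipoq with other genes there was 0.315. Pparg was listed in 1 of the 8 (12.5%) and in 10.4% of those 48 cells. Cebpa was listed in 1 of the 8 (12.5%) and in 25% of the 48.

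Fabp5, the carrier found in many tissues, was listed in 1 young cell at 38.92 FPKM and was at 0 in the other 159 cells. A near copy, Fabp5l2, is annotated in RefSeq, so reads could have been divided between them and this count is uncertain. Gapdh was likewise at 0 in 91 cells, 45 of them deeper, while Actb and B2m were listed in 160 of 160, so a 0 is read here only as not listed.

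Plin2, which encodes a coat protein of lipid droplets, was listed in 7 young cells (8.54%, 3.5 to 16.8%) at 13.13 through a median of 21.41 to 148.3 FPKM. It was listed in 4 old cells (5.13%, 1.41 to 12.6%) at 27.25, 30.47, 32.43 and 38.54 FPKM. All 11 were deeper cells, and 3 of the 7 young ones also listed Fabp4. None of the 11 listed Pparg, beside 12.2% of the deeper young and 4.08% of the deeper old cells without Plin2.

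Apoe, which encodes the lipoprotein of cholesterol export, ran from 0 through a median of 70.01 to 646.2 FPKM in young cells and from 0 through 33.06 to 660 FPKM in old cells. The third quartile was 199.1 FPKM in young and 122 FPKM in old cells, so the ages differed above the median as well as below it, while their highest values were close. Apoe was listed in 81.7% of young cells (71.6 to 89.4%) and 69.2% of old cells (57.8 to 79.2%), -12.5 points. In deeper cells the shares were 94.6% and 83%, the medians 89.01 and 65.35 FPKM and the third quartiles 225.6 and 117.7 FPKM. The difference in share was -2.28 points in cells with at least 50% of the median gene number and -1.9 points in cells of at least the median depth. Macrophages also make Apoe and Lpl: 8 of 10 macrophage markers were listed in 0 of the 160 cells, Cd68 in 3 young cells and 2 old ones, Cd14 in 2 young cells and 4 old ones, and no cell listed more than 1 of them. Their summed level ran from 0 to 30.57 FPKM in young cells and from 0 to 181.5 FPKM in old cells, and their part in the result was not tested.

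**Figure D2:**
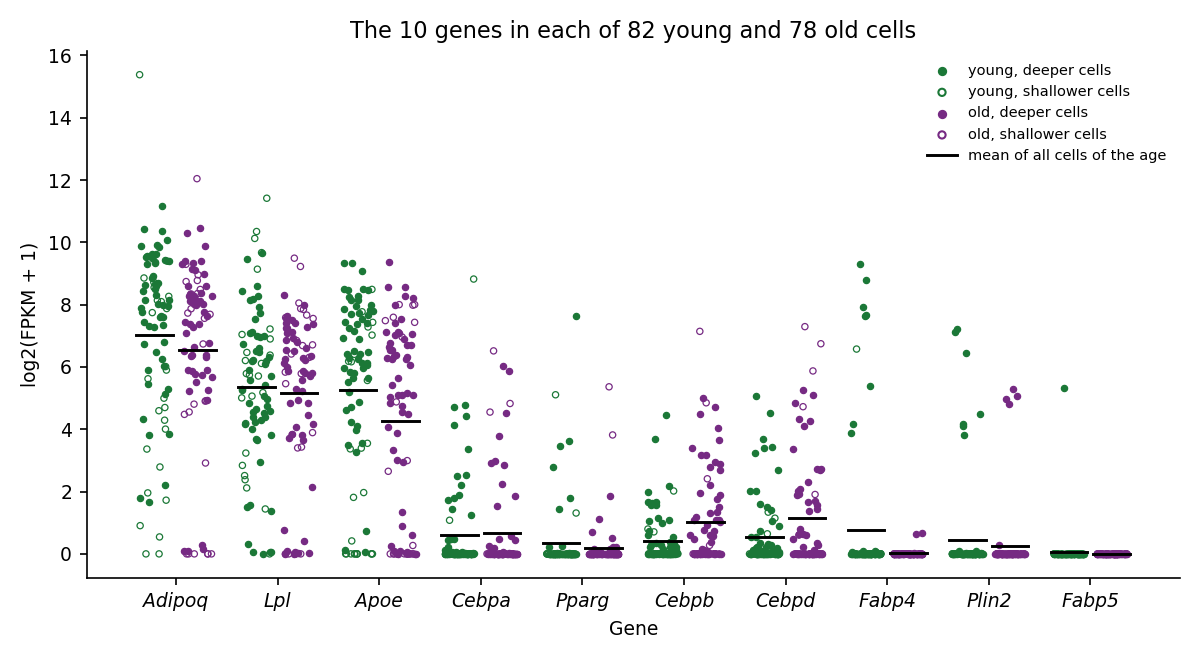
Each point is 1 cell, with log2(FPKM + 1) on the vertical axis and the 10 genes on the horizontal axis, young cells at the left and old cells at the right of each gene. Filled points are deeper cells, open points shallower cells, and black lines are means over all cells of an age. Adipoq, Lpl and Apoe fill the upper range in both ages, while Fabp4 stands above 1 FPKM in 9 young cells and 0 old cells.

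These differences were set beside those of all genes. Of the 3829 genes listed in at least 10% of the cells of an age, 7.55% had a share higher in old cells by 10 points or more and 11.2% a share higher in young cells by as much. 7 of the 10 genes passed that filter, Fabp4 through the young cells alone. Among these 7, 2 were higher in old cells by 10 points (Cebpb and Cebpd) and 2 in young cells (Apoe and Fabp4). In deeper cells, where 10.6% of 4545 genes were higher in old cells and 12.8% in young cells by that margin, the same 4 genes passed it. These calls moved with the setting: of 8 alternatives, the margin was kept in 7 for Fabp4, in 6 for Cebpb, in 4 for Cebpd and in 4 for Apoe. By the ratio of means, 20.1% of genes were at least 2-fold higher in old cells and 19% in young cells. Among the 7 that passed the filter, Cebpb and Cebpd were higher by that fold in old cells, and Adipoq and Fabp4 in young cells, Adipoq only with its highest young cell. The median difference of all genes that passed the filter was -0.469 points in all cells and -0.775 in deeper cells. That of the 10 genes was -4.02 and -5.56 points, with the genes under the filter included.

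**Figure D3:**
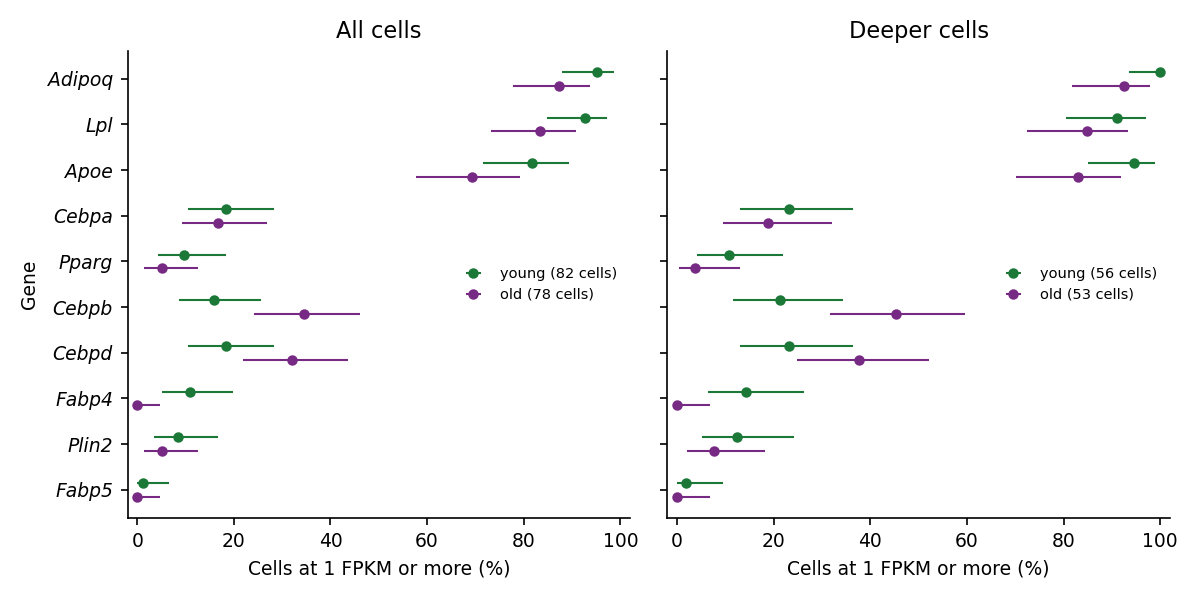
Share of cells at 1 FPKM or more, in percent, for each gene in young and old cells, with exact 95% intervals that cover counting error only. The left panel has all 82 young and 78 old cells and the right panel the 56 and 53 deeper cells. Cebpb and Cebpd are the genes whose old point lies to the right of the young point in both panels.

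The genes were next read together in each cell. A median of 3.5 of the 10 was listed in young cells and 3 in old cells, and 4 in deeper cells of both ages. At least 3 were listed in 82.9% of young cells (73 to 90.3%) and 71.8% of old cells (60.5 to 81.4%), and in 94.6% and 83% of deeper cells. In cells with at least 50% of the median gene number the order turned, at 86.8% and 87.9%. At the upper end the order was the other way round: 5 or more were listed in 15.9% of young and 23.1% of old cells, and in 23.2% and 32.1% of deeper cells, with overlapping intervals. Deeper old cells thus held both the cells with the fewest genes, 1 cell with 0 and 2 cells with 1, and the only cell with 7. The cells with 0 or 1 of the 10 were poor in genes of any kind, with 317, 387 and 414 listed. The median deeper old cell listed 1322 and the lowest deeper young cell 630.

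The commonest combination in deeper cells was Adipoq, Lpl and Apoe with no regulator, in 12 young and 9 old cells. The same trio with Cebpd alone was found in 6 young and 7 old cells, with Cebpb alone in 6 and 5, and with Cebpa alone in 6 and 2. The trio with both Cebpb and Cebpd was found in 0 young and 6 old cells. None of the 4 regulators was listed in 20 of 56 deeper young cells and 17 of 53 deeper old cells, and Adipoq was listed in 20 and 14 of those. Their median Adipoq was 269.4 FPKM in the young and 216.1 FPKM in the old, beside 298.5 and 186.1 FPKM in deeper cells with any regulator. The hormone was thus listed with or without RNA of the regulators at 1 FPKM.

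Cebpb and Cebpd met in the same cell in 2 young and 11 old cells, all of them deeper, and these 11 old cells are 20.8% of the deeper old cells (10.8 to 34.1%). Among deeper young cells Cebpd was listed in 16.7% of those with Cebpb and 25% of those without. In deeper old cells these shares were 45.8% and 31%. Counts of genes listed together, here and above, follow in part from the share of each gene alone. The numbers expected from those shares were not computed. Cebpb without Cebpd was listed in 10 deeper young and 13 deeper old cells, and Cebpd without Cebpb in 11 and 9. The early and the master regulators met in 4 young and 10 old cells, and through Cebpa in all of the young and 8 of the old. Of the 8 young cells with Pparg, 0 listed Cebpb or Cebpd, which were listed in 17.6% and 20.3% of the young cells without Pparg. Under 1 FPKM some of the 8 did hold RNA of these early regulators. A deeper young cell at 11.21 FPKM of Pparg held 33 fragments of Cebpb and 61 of Cebpd. Another, at 1.732 FPKM of Pparg, held 0 of both. All 4 regulators were listed together in no cell (0 of 160, which allows up to 1.88%, and 0 of 109 deeper cells, up to 2.75%). That holds at 1 FPKM only. A deeper young cell held Pparg, Cebpa, Cebpb and Cebpd at 2.458, 16.48, 0.9676 and 0.1599 FPKM. A deeper old cell held them at 0.6181, 0.1374, 0.2967 and 0.07833 FPKM. Pparg itself was listed in 8 young and 4 old cells, so few cells could list all 4. All 5 steps, with hormone, master regulator, early regulator, fatty acid gene and droplet or lipoprotein gene, were listed in 4 young and 8 old cells, 4 and 7 of them deeper.

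**Figure D4:**
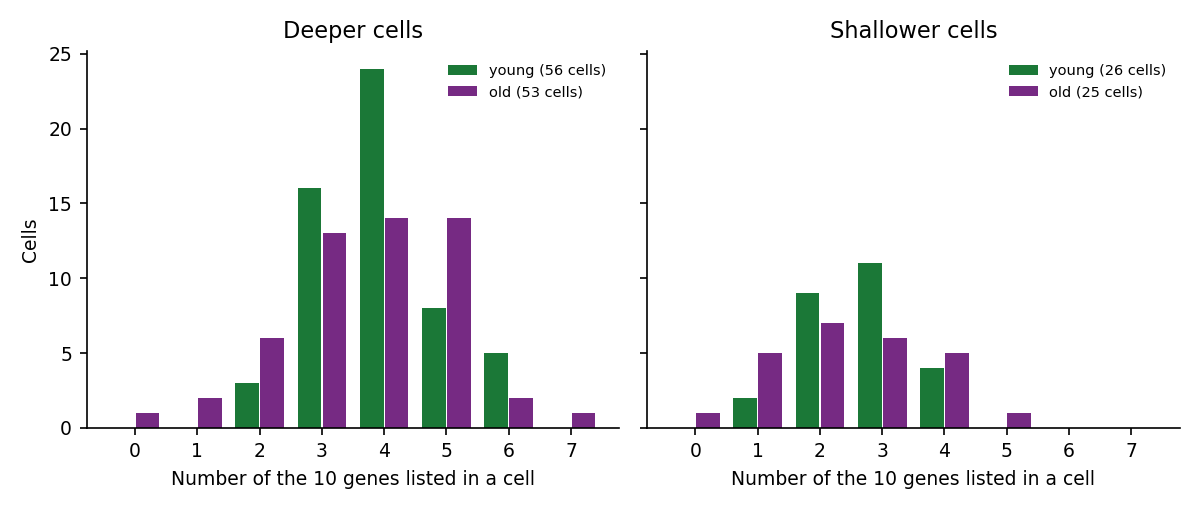
Number of cells (vertical axis) by how many of the 10 genes they list (horizontal axis), for deeper cells at the left and shallower cells at the right, young and old side by side. Deeper young cells run from 2 to 6 genes and deeper old cells from 0 to 7, and shallower cells list fewer.

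Correlations of FPKM across cells within an age are given as descriptions, since all genes of a cell share its depth. Adipoq and Lpl had a Spearman correlation of 0.379 over 82 young cells and 0.252 over 78 old cells, and of 0.365 and 0.229 over the 56 and 53 deeper cells. Adipoq had a median correlation of 0.193 with 996 other genes in young cells and 0.119 in old cells, with 95th percentiles of 0.378 and 0.278, so its correlation with Lpl lay near the upper end in the young and under that percentile in the old. Cebpb and Cebpd were correlated at 0.387 in old cells and 0.0392 in young cells, and at 0.451 and -0.20 in deeper cells. The 95th percentile of Cebpb with other genes was 0.39 in old cells, just above its value with Cebpd, and 0.289 in deeper old cells, below it. Adipoq and Cebpa stood at 0.184 in young and 0.0955 in old cells, and at 0.124 and 0.0805 in deeper cells.

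The genes most like each of the 6 broadly listed members were taken by the mean of the 2 within-age Spearman correlations among 997 genes listed in at least 25% of cells. For Adipoq they were Ftl1 (0.437), Hp (0.388) and Fmo2 (0.385), and for Lpl they were Adipoq (0.316), Clu (0.274) and Ctcfl (0.27). For Cebpa they were Dag1 (0.446), Ilk (0.375) and Gas6 (0.361). The closest to Cebpb was Casc4 (0.457), then Gmeb1 (0.457) and Atp5l (0.427). The closest to Cebpd was Tmsb10 (0.413), then Serinc1 (0.399) and Ndufa3 (0.397), and to Apoe it was Tra2b (0.452), with Loxl2 at 0.437. In deeper cells Dag1 still led for Cebpa (0.388) and Serinc1 led for Cebpd (0.396), while Sod1 led for Adipoq (0.333), Ldha for Cebpb (0.322) and Picalm for Lpl (0.326).

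Of 112 other genes of fat biology in 9 lists, 28 were listed in no cell and 31 in at least 10% of the cells of an age. Of these 31, 3 were higher in old cells by 10 points or more and 6 in young cells, beside 7.55% and 11.2% of all genes past the same filter, and their median difference was -3.28 points beside -0.469. In deeper cells 5 and 7 of 43 passed the margin, beside 10.6% and 12.8%. Klf4, Stat5b and Foxo1 among the first and Klf4, Stat5b, Nr2f2 and Lpin2 among the second passed the filter through the age in which they were higher alone, so these counts are descriptions. The widest gap was that of Angptl4, which encodes a secreted inhibitor of lipoprotein lipase: it was listed in 40 young cells (48.8%, 37.6 to 60.1%) and 10 old cells (12.8%, 6.32 to 22.3%), and in 64.3% and 18.9% of deeper cells. Lpl, the gene of that lipase, differed by -9.35 points in all cells and -6.17 in deeper cells. A link between the shares of these 2 RNAs was not tested. On the same list of uptake genes, Ptrf, which encodes a coat protein of caveolae, was listed in 36.6% of young and 47.4% of old cells.

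Among early and lineage factors, 1 of 8 genes was higher in old cells by the margin and 2 in young cells, and in deeper cells 2 and 2 of 9. Ebf1, a factor of the fat and B cell lineages, was listed in 82.9% of young and 65.4% of old cells, Ebf3 in 67.1% and 61.5% (Ebf1 in 89.3% and 79.2%, Ebf3 in 80.4% and 75.5% of deeper cells), and Stat5b in 3.66% and 14.1%. Of 4 partners and late regulators, 0 were higher in old cells and 2 in young cells by 10 points, with Ncor1, a corepressor of nuclear receptors, at 48.8% and 34.6%, and in deeper cells 0 and 1 of 6. Of 4 brakes on fat formation none passed the margin, and in deeper cells 1 of 6 did, Nr2f2, at 21.4% of young and 9.43% of old cells. Foxc1, which keeps niche cells from turning into fat, was listed in 54.9% and 61.5%, and the row that holds Runx2, the bone regulator, together with another gene name in 58.5% and 65.4%. On the droplet list, G0s2, an inhibitor of the lipase that opens triglyceride stores, was listed in 15.9% and 28.2% (19.6% and 34% of deeper cells), and 8 of the 15 genes were listed in no cell. On the lipoprotein list, Apod was listed in 35.4% of young and 10.3% of old cells (42.9% and 11.3% of deeper cells). Npc2, a cholesterol carrier of lysosomes, was listed in 39% and 29.5% (50% and 34% of deeper cells). On the synthesis list no gene of 3 passed the margin in all cells, and in deeper cells 1 of 5 did, Lpin2, at 3.57% of young and 18.9% of old cells. Among hormones and insulin response none of 3 passed it in all cells and none of 5 in deeper cells. Other fatty acid binding proteins had 4 of 5 genes listed in no cell.

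**Figure D5:**
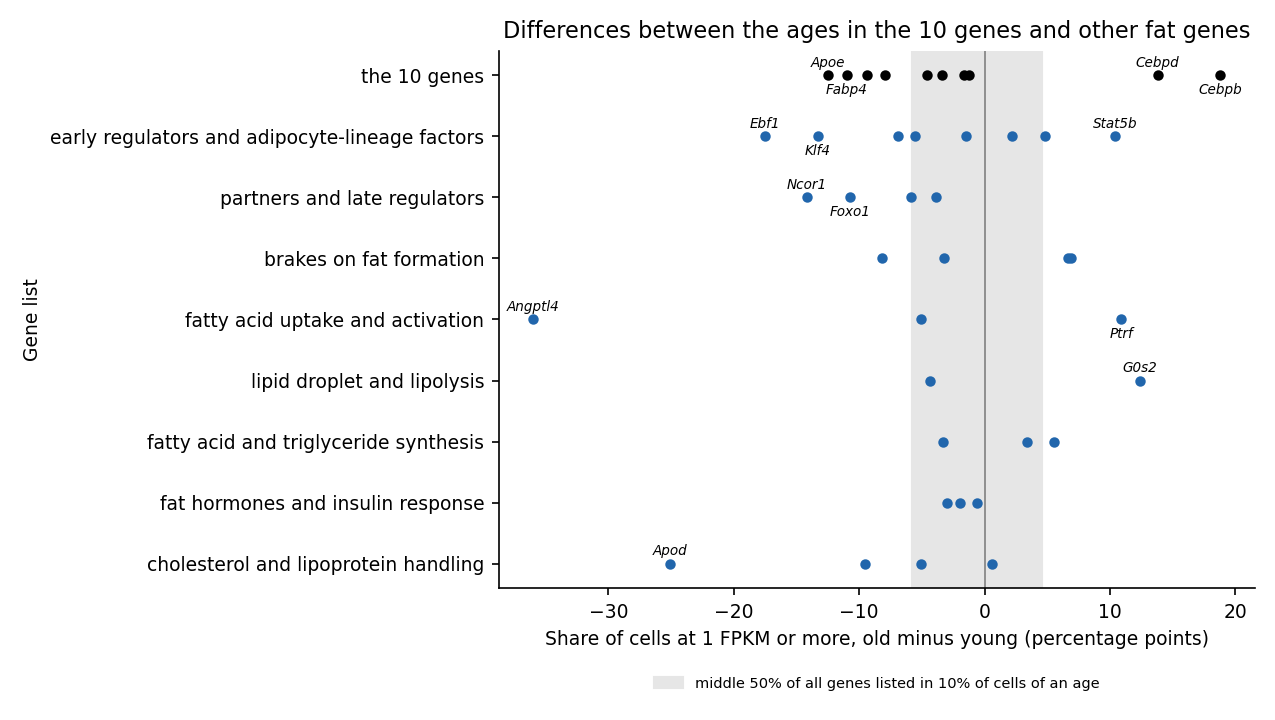
Difference in the share of cells at 1 FPKM or more, old minus young, in percentage points, for the 10 genes (black) and for other fat genes listed in at least 10% of the cells of an age (blue), by list. The grey band holds the middle 50% of all 3829 genes, and genes 10 points or more from 0 are named. Angptl4 lies at -36 points, and Cebpb at 18.8 points.

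Genes of the mature fat cell were seldom listed at 1 FPKM. Plin1, Cidec, Cidea, Lep, Retn, Cfd and Pck1 were each listed in no cell (0 of 160, which allows up to 1.88%). Among the 109 deeper cells, 0 allows up to 2.75%. Slc2a4 and Lipe were listed in 2 young cells each, all deeper. As with Gapdh, a 0 here says only that the gene was not listed. The niche markers that fit the sort were widespread: at least 3 of Lepr, Cxcl12, Kitl, Pdgfra, Ebf3 and Foxc1 were listed in 78 young and 68 old cells, 56 and 50 of them deeper. Pdgfra itself, the gene of the sorted CD140a, was listed in 28 young cells and 30 old cells. Ibsp, a bone matrix gene, was listed in 81 young cells and 69 old cells, and Sp7, a bone regulator, in 4 and 4.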

How the data were processed

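The authors deposited FPKM in 1 table with a column for each cell. Cufflinks 2.1.1 and the mouse build mm9 come from the submitters' processing notes. Filters and read numbers were not given in the sources used here. Empty wells and wells with more than 1 or a shrunken cell had been excluded under a microscope, per the labels' protocols, and no doublet caller was run. Rows without a gene name (7751 of 31199) were not used, and rows of 1 name were summed. Groups came from the age in the labels. With 1 sample an age no test was made, and p-values, which cells cannot give, are not printed. The relative depth was computed from the commonest log2 ratio of low FPKM between each pair of cells, over the lower 50% of genes. Over 4638 genes above 0 in at least 20 cells, 63.03% of values up to 10 fragments were whole multiples within 0.02. An even spread would give 4%, which is only a rough guide. The unit of each gene was its own lowest value times depth, a whole multiple by construction, and the depths came from low values too. In 1837 genes over 90% of these values were whole multiples, and fragments are given only for genes over that 90%. The cut at 25% of the median depth was chosen after seeing the data. Ratios of means have a pseudocount of 1, which understates changes of low genes. The genes and lists were chosen with earlier results of these data known. Named genes are the 10, the 2 highest shares and the highest and lowest differences of each list, of which some are shown, and the 3 closest correlates of each gene listed in 10% of both ages, leaving out predicted, ribosomal protein and small RNA genes. A correlate of Apoe is not reported here. The relative depth, the differences in share and in mean log2 value, and the Spearman correlation were tested on simulated or known values. The other computed steps were not. Analyses used Python 3.11.15, numpy 2.4.6, scipy 1.17.1, pandas 2.3.3 and matplotlib 3.10.9.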

Additional observations from a re-analysis of the deposited data

How the results depend on the processing

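No paired analysis was possible because cell numbers are only names and no animal is named. Taking rows named by the gene alone could change nothing, since each gene had 1 row of its own. Over the other 8 alternatives the difference in share, old minus young, was 6.54 to 27.5 points for Cebpb and -0.438 to 19.1 for Cebpd, negative only in deeper cells at any FPKM above 0. It was -17.8 to -9.69 for Fabp4, -2.5 to -1.22 for Fabp5, -17.4 to -1.9 for Plin2, -14.1 to -1.9 for Apoe, -9.16 to 0 for Adipoq, -9.35 to 0.317 for Lpl, -6.94 to 0.263 for Pparg and -8.49 to 2.88 for Cebpa. The log2 ratio of means kept its direction in 9 of 9 alternatives for Adipoq, Pparg, Cebpb, Cebpd, Fabp4, Plin2 and Apoe, in 7 for Lpl and in 2 for Cebpa. Pseudocounts of 0.1 and 10, which are 2 of these alternatives, cannot turn the direction, since both means gain the same amount. For Cebpa they were the 2 that kept it, at -0.731 and -0.262. The number of genes with a higher share in old cells, 2 of 10, became 3 at 10 FPKM, 4 in cells within the interquartile range of gene number, 4 in cells of at least the median relative depth and 1 in deeper cells at any FPKM above 0. The share of cells with at least 3 of the 10 genes was, for young and old, 65.9% and 61.5% at 10 FPKM and 90% and 86.8% within the interquartile range. The order turned round in cells with at least 50% of the median gene number, at 86.8% and 87.9%. It was 94.6% and 83% in deeper cells, 95.6% and 88.6% in cells of at least the median depth, and 98.2% and 96.2% in deeper cells at any FPKM above 0. Pparg or Cebpa was present in 45.1% of young and 41% of old cells at any FPKM above 0, in 11% and 11.5% at 10 FPKM, and in 58.9% and 50.9% of deeper cells at any FPKM above 0. These settings change by construction which cells or values count; no other cause was tested. Depth limits the shallower cells most, where a listed value can be 1 fragment. The deeper cells, the cells of at least the median depth and the combined setting were chosen after seeing the data.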
